A study of Homo sapiens with 4 samples.

Results

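The 35 genes described here encode the enzymes that make purine and pyrimidine nucleotides and convert them to the deoxynucleotides (dNTPs) of DNA. They were taken by gene name from the deposited count table, 35 of its 58735 genes. All 35 had a mean of at least 1 CPM (reads of a gene scaled to a common library size) over the 4 libraries and were among the 14585 genes tested. RNA came from MDA-MB-231, a human cell line of triple-negative breast cancer with a mesenchymal character, in a study of cellular dormancy.

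Cells of all 4 groups carried TetOn-H2BeGFP, a histone-GFP fusion made in the presence of doxycycline. All had received doxycycline at 5 μg/ml for 3 days and the dyes Claret and Violet, followed by a chase of 12 days during which dividing cells dilute each label. The groups were Claret, eGFP and Violet, each the 1% of cells that kept most of that label (slow-cycling cells), and Bulk, which passed the sorter without a fluorescence gate and may therefore contain label-retaining cells too. The labels do not say whether the transduced line was a clone. Each group was 1 library, so no value here has a replicate check, and every test compares the reads of 2 libraries and not the conditions. Groups follow the sample titles. The treatment field names another sort in every sample: the library titled Bulk is listed there as Claret, that titled Claret as eGFP, that titled H2B-eGFP as Violet and that titled Violet as un-gated.

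The libraries held 15508179 to 16976909 reads, and mitochondrial genes took 4.18% of them in Bulk and 5.06% to 5.48% in the slow-cycling libraries. MDA-MB-231 markers were as the line is known: VIM had 12507 to 18488 reads and CD44 5303 to 6357, whereas ESR1 had 3 to 7, CDH1 at most 3, EPCAM 28 to 61 and PGR none. The leukocyte marker PTPRC had at most 2 reads and the endothelial marker PECAM1 54 to 87. Ki-67 (MKI67), a protein of cycling cells, had 6778 reads in Bulk against 995 (Claret), 689 (eGFP) and 915 (Violet). All 17 listed replication genes (MCM2 to MCM7, PCNA, CDC6 and others) were at least 2-fold lower in each slow-cycling library (two-sided exact binomial test on reads, adjusted p under 0.05), with median log2 ratios to Bulk of -2.36, -2.59 and -2.43 in Claret, eGFP and Violet. The part that the share of cycling cells had in the values below was not tested, and in bulk RNA fewer cells of a type and less RNA per cell cannot be told apart.

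De novo synthesis builds the purine ring on an activated ribose, PRPP, up to the branch point IMP, and builds the pyrimidine ring as orotate before it is joined to PRPP. Salvage enzymes recycle free bases and nucleosides. Ribonucleotide reductase then removes a hydroxyl group from the ribose to give deoxynucleotides, and thymidylate synthase makes the thymine that only DNA carries. Dividing cells draw heavily on the deoxynucleotide steps in S phase, while resting cells need small amounts for DNA repair and for the mitochondrial genome.

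A gene was called when its log2 ratio (CPM scaled by TMM, prior count of 2) was at least 1 in size, a fold of 2, and its adjusted p was under 0.05 in a two-sided exact binomial test on the reads, with Benjamini-Hochberg adjustment over all 14585 genes. Where 3 ratios to Bulk follow each other they are for Claret, eGFP and Violet in that order. By this rule 17 of the 35 members were lower in Claret than in Bulk, 17 in eGFP and 19 in Violet, and 1 member was higher in each. Among all genes tested, 6.67% were called lower and 11.2% higher in Claret, 7.6% and 11.9% in eGFP, and 7.01% and 11.3% in Violet. The median log2 ratio of the members was -0.82, -0.97 and -1.03 in Claret, eGFP and Violet, against -0.01, -0.01 and 0.00 for all genes tested. Together the members took 0.414% of the reads in Bulk and 0.215% to 0.231% in the slow-cycling libraries.

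The calls were unevenly spread over the roles of the enzymes. In all, 16 members were called lower in each of the 3 slow-cycling libraries: RRM1 and RRM2 of ribonucleotide reductase, TYMS, TK1, DUT and DTYMK of the thymidylate branch, DCK and SAMHD1, the pyrimidine enzymes UMPS and CTPS1, the purine enzymes PFAS, PAICS and ADSL, and PRPS1, NME1 and MTHFD1. The adjusted p of these members in the exact binomial test was at most 2.3e-06, for ADSL in Claret. The 1 member called higher in each was ADSSL1. Of all genes tested, 4.92% were called lower in all 3 and 8.36% higher in all 3. The 3 comparisons share the Bulk library, so they are not independent of each other. With an edgeR exact test that assumed a biological coefficient of variation of 0.2, 10 of the 16 stayed called lower in all 3, and DCK, SAMHD1, UMPS, PAICS, ADSL and PRPS1 did not. With groups from the treatment field, 0 members were called lower in all 3, and the median of the 3 log2 ratios turned its sign for 15 of these 17 members and for 15 of the others.

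**Figure D1:**
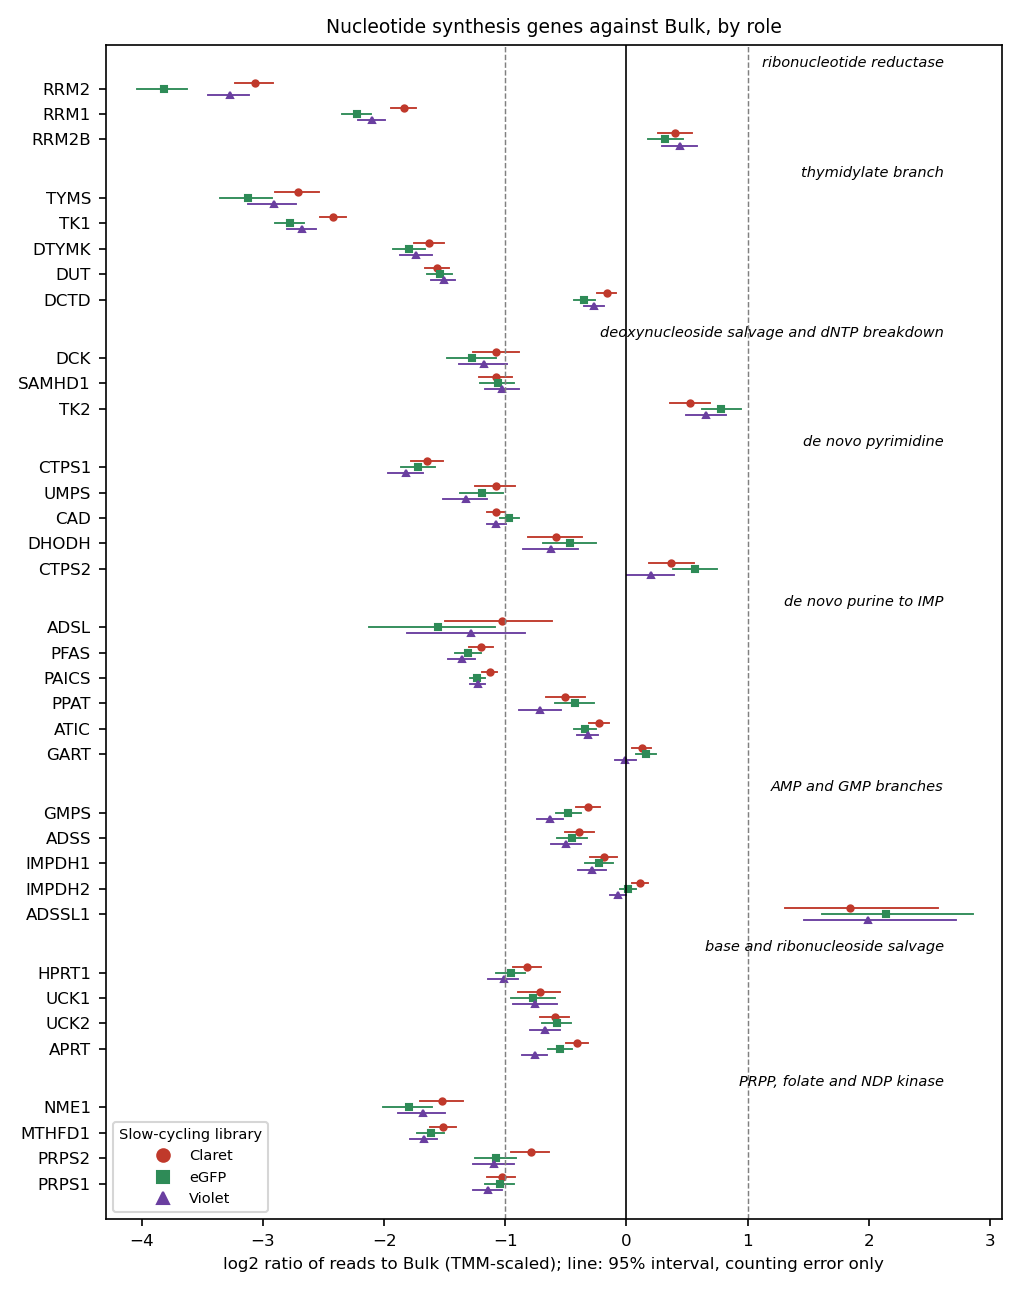
Log2 ratio of reads to Bulk (x axis) for each of the 35 members, grouped by role, in Claret (circles), eGFP (squares) and Violet (triangles), 1 library each. Lines are 95% exact intervals that cover counting error only, and dashed lines mark a fold of 2. RRM2 lies farthest to the left, at -3.82 in eGFP, and ADSSL1 farthest to the right, at 2.14 in eGFP.

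Ribonucleotide reductase pairs a large subunit, RRM1, with a small subunit that is either RRM2, made for S phase, or RRM2B (p53R2), which serves resting cells and DNA repair. RRM2 had 3007 reads in Bulk against 385 (Claret), 213 (eGFP) and 310 (Violet). It was the member with the largest difference, 8.37-fold lower than Bulk in Claret, 14.1-fold lower in eGFP and 9.67-fold lower in Violet. RRM1 had 3398 reads in Bulk against 1023 (Claret), 731 (eGFP) and 793 (Violet), with log2 ratios of -1.84, -2.22 and -2.10. RRM2B, in contrast, was not called: it had 707 reads in Bulk against 1005 (Claret), 890 (eGFP) and 961 (Violet). Its log2 ratios were 0.40 (95% interval 0.26 to 0.54), 0.32 (0.18 to 0.47) and 0.44 (0.30 to 0.58), above 0 in each library and below the fold of 2.

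Set per gene length, by the deposited FPKM, the 2 small subunits changed places. In Bulk, RRM2 stood at 36.3 FPKM and RRM2B at 8.20, so that RRM2B made up 18.4% of the small-subunit FPKM. RRM2B made up 71.5%, 80.0% and 74.8% in Claret, eGFP and Violet. Relative to RRM1, the RRM2 level was 0.694 in Bulk and 0.229 to 0.307 in the slow-cycling libraries, while the RRM2B level was 0.157 in Bulk and 0.740 to 0.917 in the others. RRM2 was thus farther below Bulk than its large subunit in each library. Both small subunits together came to 0.851 of the RRM1 level in Bulk and to between 1.03 and 1.22 in the slow-cycling libraries. These are levels of RNA, and protein was not measured.

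RRM2 lies on chromosome 2 of GRCh38, at 10120698 to 10131419 on the plus strand. Its promoter is shown because the gene had the largest difference of the 35 and because it carries the CCAAT box, a motif bound by NF-Y in many cell-cycle promoters, 3 times. The sequence is RefSeq's on GRCh38.p14 (chr2:10122489-10122788, plus strand), from 250 bases before to 50 bases after the RefSeq start, which lies inside the gene as the deposited table bounds it. Capitals mark CCAAT, which begins 123, 93 and 66 bases before that start. The window of GART, which was not called, also holds CCAAT 3 times. The windows of TYMS and TK1, which were called lower, do not hold it.
RRM2: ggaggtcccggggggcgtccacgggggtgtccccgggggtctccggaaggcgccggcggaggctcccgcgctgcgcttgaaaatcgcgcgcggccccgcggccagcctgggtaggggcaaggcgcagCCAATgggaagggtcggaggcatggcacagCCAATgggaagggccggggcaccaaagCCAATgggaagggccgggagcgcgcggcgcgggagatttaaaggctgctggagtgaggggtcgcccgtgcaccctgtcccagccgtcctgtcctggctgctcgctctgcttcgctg

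The thymidylate branch supplies the nucleotide that only DNA uses. TYMS, thymidylate synthase (chromosome 18, 657604 to 673578, plus strand), had 1755 reads in Bulk against 287 (Claret), 201 (eGFP) and 232 (Violet), 6.54-fold, 8.72-fold and 7.53-fold lower than Bulk. TK1, the cytosolic thymidine kinase of S phase (chromosome 17, 78174075 to 78187233, minus strand), was the highest member in Bulk per gene length, at 152 FPKM. It had 4407 reads in Bulk against 885 (Claret), 647 (eGFP) and 689 (Violet), 5.35-fold, 6.84-fold and 6.40-fold lower. DUT, which keeps uracil out of DNA by splitting dUTP, had 3140 reads in Bulk against 1141 (Claret), 1085 (eGFP) and 1104 (Violet), and its log2 ratios lay close together at -1.56, -1.54 and -1.51. DTYMK, the kinase that phosphorylates dTMP, had 2077 reads in Bulk against 721 (Claret), 602 (eGFP) and 625 (Violet), with log2 ratios of -1.63, -1.79 and -1.73. DCTD, which deaminates dCMP to dUMP and so feeds TYMS, was the exception of the branch. It had 2584 reads in Bulk against 2484 (Claret), 2046 (eGFP) and 2149 (Violet), with log2 ratios of -0.16, -0.35 and -0.27, and was not called. TYMS shares 46.6% of its exonic bases with exons of other genes, chiefly with ENOSF1 on the opposite strand, which had 942 reads in Bulk and between 764 and 909 in the others. Whether the counting used strand is not given in the sources used here, so reads of the shared bases cannot be told apart.

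**Figure D2:**
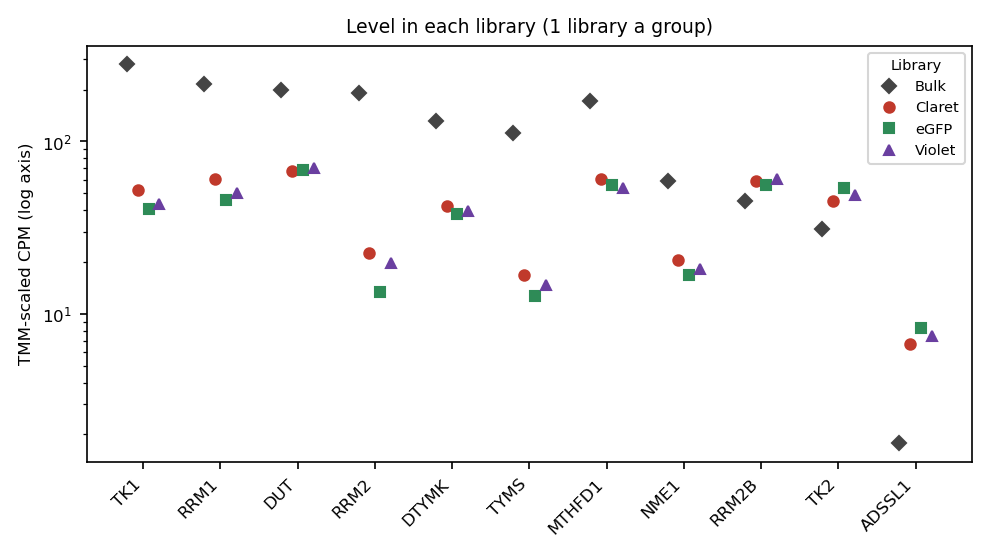
CPM scaled by TMM (log y axis) in Bulk (diamonds), Claret (circles), eGFP (squares) and Violet (triangles) for 11 members, 1 library a group. The 8 genes from TK1 to NME1 have their highest point in Bulk, and RRM2B, TK2 and ADSSL1 their lowest.

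Thymidine can also be phosphorylated in mitochondria, by TK2. TK2 had 492 reads in Bulk against 761 (Claret), 853 (eGFP) and 777 (Violet), with log2 ratios of 0.52 (0.36 to 0.69), 0.78 (0.62 to 0.95) and 0.65 (0.49 to 0.82). It was higher in each slow-cycling library without reaching the fold of 2. The share of TK1 in the summed FPKM of the pair was 97.2% in Bulk against 81.8% (Claret), 74.5% (eGFP) and 77.4% (Violet). Per gene length (1861 bases for TK1 and 7169 for TK2), TK1 thus remained the higher of the 2 in every library. By reads TK2 was above TK1 in eGFP and Violet. DCK, the deoxycytidine kinase of nucleoside salvage, had 692 reads in Bulk against 353 (Claret), 287 (eGFP) and 306 (Violet), with log2 ratios of -1.07, -1.27 and -1.18. SAMHD1, which breaks dNTPs down, was called lower as well. It had 1291 reads in Bulk against 657 (Claret), 621 (eGFP) and 635 (Violet), and its log2 ratios of -1.08, -1.06 and -1.03 were among the closest to the threshold.

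Of the 5 genes of de novo pyrimidine synthesis, UMPS and CTPS1 were called lower in all 3 libraries, CAD in 2 of them, and DHODH and CTPS2 in none. CAD, the trifunctional protein that starts the pathway, had 4166 reads in Bulk against 2125 (Claret), 2148 (eGFP) and 1983 (Violet). Its log2 ratios of -1.08, -0.97 and -1.07 lay on either side of the threshold, and it was called lower in Claret and Violet. DHODH, the mitochondrial enzyme of the pathway, had 403 reads in Bulk and between 262 and 293 in the others, with log2 ratios of -0.58, -0.47 and -0.62, and was not called. UMPS, which completes UMP, had 870 reads in Bulk against 442 (Claret), 382 (eGFP) and 347 (Violet), with log2 ratios of -1.08, -1.19 and -1.32. The 2 CTP synthases, which convert UTP to CTP, differed. CTPS1, the form on which proliferating lymphocytes depend, had 1790 reads in Bulk against 615 (Claret), 547 (eGFP) and 507 (Violet), 3.13-fold, 3.29-fold and 3.53-fold lower. CTPS2 was not called, with 412 reads in Bulk against 574 (Claret), 615 (eGFP) and 475 (Violet). Its log2 ratios were 0.37, 0.57 and 0.20, the last with an adjusted p of 0.059 in the exact binomial test. Per gene length CTPS1 was 67.5% of the pair in Bulk and 29.9% to 33.9% in the slow-cycling libraries, so CTPS2 had the higher FPKM in all 3. This order depends on the gene lengths used, 11517 bases for CTPS1 and 5510 for CTPS2. By reads CTPS1 stayed above CTPS2 in Claret and Violet.

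De novo purine synthesis up to IMP split between 3 enzymes called lower and 3 that were not called in any slow-cycling library. PFAS had 2483 reads in Bulk against 1162 (Claret), 1011 (eGFP) and 969 (Violet), with log2 ratios of -1.20, -1.31 and -1.36. PAICS, a bifunctional enzyme of the middle of the pathway, had 6671 reads in Bulk against 3284 (Claret), 2862 (eGFP) and 2855 (Violet), with log2 ratios of -1.13, -1.23 and -1.23. ADSL, which acts both here and in making AMP, had few reads, 129 in Bulk against 67 (Claret), 43 (eGFP) and 52 (Violet). Its log2 ratios of -1.03, -1.55 and -1.28 carry wide intervals, in Violet from -1.81 to -0.84. The other three were closer to Bulk. PPAT, the committed first enzyme, had 740 reads in Bulk against 561 (Claret), 555 (eGFP) and 452 (Violet), with log2 ratios of -0.50, -0.42 and -0.71. GART, a trifunctional enzyme, had 2296 reads in Bulk against 2696 (Claret), 2587 (eGFP) and 2288 (Violet), with log2 ratios of 0.13, 0.16 and -0.01. ATIC, which carries out the closing steps to IMP, had log2 ratios of -0.23, -0.34 and -0.32. The summed CPM of the 6 enzymes was 57.8% to 62.9% of that in Bulk, against 25.6% to 31.5% for ribonucleotide reductase and 32.6% to 36.7% for the thymidylate branch.

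Beyond IMP, the AMP and GMP branches had no member called lower, and their summed CPM was 83.7% to 94.7% of Bulk. IMPDH2, the rate-limiting enzyme of GMP synthesis, was the second most abundant member in Bulk per gene length. It had 3891 reads in Bulk against 4525 (Claret), 3957 (eGFP) and 3714 (Violet), with log2 ratios of 0.11, 0.01 and -0.07. Its relative IMPDH1 had 1382 reads in Bulk against 1307 (Claret), 1191 (eGFP) and 1136 (Violet), with log2 ratios of -0.19, -0.22 and -0.29. GMPS, the next enzyme, had 1861 reads in Bulk against 1606 (Claret), 1344 (eGFP) and 1206 (Violet), with log2 ratios of -0.32, -0.48 and -0.63. In the AMP branch, ADSS, the ubiquitous adenylosuccinate synthase, had 1254 reads in Bulk against 1031 (Claret), 924 (eGFP) and 891 (Violet), with log2 ratios of -0.39, -0.45 and -0.50. ADSSL1, its relative best known from muscle (chromosome 14, 104724186 to 104747325, plus strand), had 28 reads in Bulk against 114 (Claret), 131 (eGFP) and 118 (Violet). It was called higher, 3.60-fold, 4.41-fold and 3.99-fold (95% intervals on the log2 scale 1.31 to 2.57, 1.62 to 2.86 and 1.47 to 2.72), with adjusted p of 1.3e-11, 2.4e-16 and 1.0e-13 in the exact binomial test. It stayed the minor form, at 1.40% of the FPKM of the pair in Bulk and 6.56% to 8.26% in the slow-cycling libraries. With a filter at a mean of 10 CPM, ADSSL1 was not tested. On the scale log2(FPKM + 1), where a call rested on the fold of 2 alone, it was not called.

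Base and ribonucleoside salvage lay below Bulk without a call in all 3 libraries. HPRT1, which recycles hypoxanthine and guanine, had 1632 reads in Bulk against 994 (Claret), 847 (eGFP) and 809 (Violet), with log2 ratios of -0.82, -0.96 and -1.01, and was called in Violet. APRT, which recycles adenine, had 2049 reads in Bulk against 1663 (Claret), 1413 (eGFP) and 1216 (Violet), with log2 ratios of -0.41, -0.55 and -0.76. UCK1 and UCK2, the uridine-cytidine kinases, had log2 ratios of -0.72, -0.77 and -0.75, and of -0.59, -0.58 and -0.67. UCK1 had 687 reads in Bulk against 449 (Claret), 405 (eGFP) and 408 (Violet), and UCK2 had 1399 against 997, 944 and 881.

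Of the 4 genes that supply PRPP, folate carbon and phosphate to these pathways, PRPS1, MTHFD1 and NME1 were called lower in all 3 libraries. PRPS1, a PRPP synthase, had 1760 reads in Bulk against 926 (Claret), 857 (eGFP) and 797 (Violet), with log2 ratios of -1.03, -1.05 and -1.14. Its relative PRPS2 had 886 reads in Bulk against 550 (Claret), 422 (eGFP) and 416 (Violet), with log2 ratios of -0.79, -1.08 and -1.09, and was called in eGFP and Violet. MTHFD1, a cytosolic folate enzyme that makes the one-carbon units used by GART and ATIC, had 2714 reads in Bulk against 1024 (Claret), 893 (eGFP) and 853 (Violet), 2.85-fold, 3.06-fold and 3.18-fold lower. NME1, a nucleoside diphosphate kinase, had 930 reads in Bulk against 348 (Claret), 268 (eGFP) and 289 (Violet), 2.87-fold, 3.48-fold and 3.21-fold lower. NME1 shares 18.6% of its exonic bases with the read-through gene NME1-NME2, which had 1 read in Bulk and 0 in the others. Reads of the shared bases cannot be told apart here, so the low count of NME1-NME2 does not show how they were assigned. Besides TYMS and NME1, RRM2, DUT, TK2, SAMHD1, ADSL and MTHFD1 share over 10% of their exonic bases with other genes. Among the 27 members that do not, 9 were called lower in all 3, and the median log2 ratio was -0.59, -0.58 and -0.75 in Claret, eGFP and Violet, an alternative added after seeing the data.

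The balance between related enzymes was compared as the ratio of their reads in a slow-cycling library over the same ratio in Bulk, which needs no scaling between libraries. In 4 of 7 pairs the balance moved away from the gene that was lower and toward a partner whose log2 ratios to Bulk were above 0 in each library. For RRM2 over RRM2B it fell to 0.0901 of Bulk in Claret (95% exact interval 0.0778 to 0.104), 0.0563 in eGFP (0.0472 to 0.0669) and 0.0759 in Violet (0.0649 to 0.0885). For TK1 over TK2 it fell to 0.130 (0.113 to 0.149), 0.0847 (0.0736 to 0.0975) and 0.0990 (0.0860 to 0.114). CTPS1 over CTPS2 stood at 0.247, 0.205 and 0.246 of Bulk, and ADSS over ADSSL1 at 0.202, 0.158 and 0.169, with every interval below 1. With groups from the treatment field these 4 balances lay on the other side of Bulk. The other three pairs moved little. IMPDH2 over IMPDH1 stood at 1.23, 1.18 and 1.16 of Bulk, with intervals above 1. For UCK2 over UCK1 the values of 1.09, 1.14 and 1.06 had intervals that included 1. For PRPS1 over PRPS2 only the Claret value of 0.848 (0.741 to 0.970) had an interval that did not. These intervals cover counting error only.

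**Figure D3:**
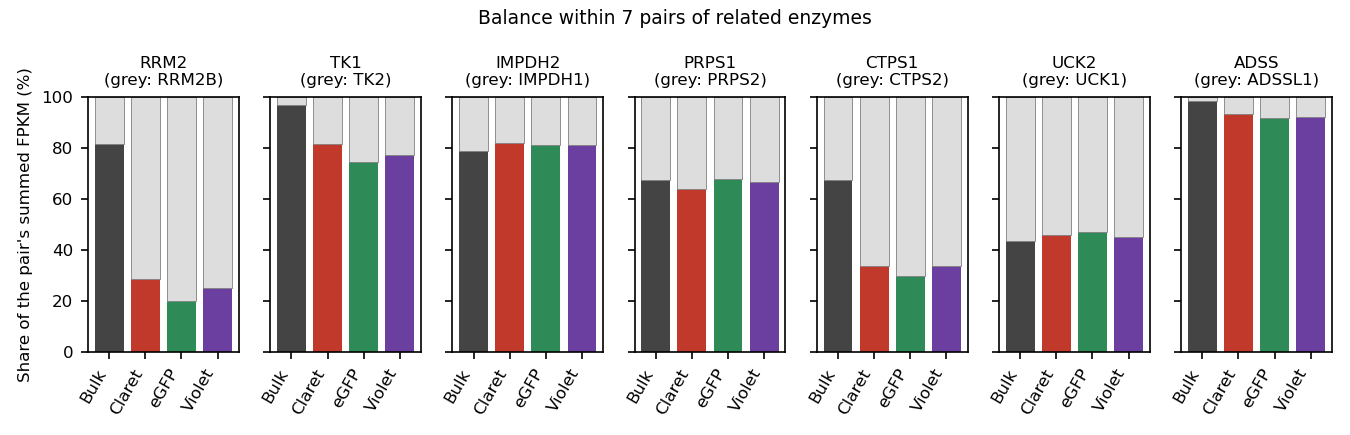
Share of each enzyme in the summed FPKM of its pair (y axis, %) in Bulk, Claret, eGFP and Violet, 1 library each; the coloured part is the first gene named and the grey part its relative. RRM2 falls from 81.6% in Bulk to between 20.0% and 28.5%, and CTPS1 from 67.5% to between 29.9% and 33.9%, while IMPDH2, PRPS1 and UCK2 keep similar shares.

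Some members start back to back with another gene, so that 2 start sites on opposite strands share a stretch of promoter. TK1 and AFMID, a gene of tryptophan breakdown, start 84 bases apart on chromosome 17 by the deposited coordinates. AFMID had 336 reads in Bulk against 357 (Claret), 328 (eGFP) and 341 (Violet), with log2 ratios of -0.02, -0.05 and 0.02. The log2 balance of TK1 over AFMID against Bulk was -2.40 (95% exact interval -2.65 to -2.16), -2.73 (-2.99 to -2.48) and -2.70 (-2.95 to -2.45). DTYMK and ING5, a chromatin protein, start 94 bases apart, and ING5 had 1100 reads in Bulk and between 1035 and 1090 in the others, with log2 ratios of -0.16, -0.02 and -0.09. In both pairs the member was called lower beside a neighbour that, like most genes tested, was not. PPAT and PAICS are a pair of this kind within the list, with starts 126 bases apart. PAICS was called lower and PPAT was not, and the balance of PAICS over PPAT, a pair added after seeing the data, stood at 0.649 of Bulk in Claret (0.577 to 0.732), 0.572 in eGFP (0.507 to 0.645) and 0.701 in Violet (0.617 to 0.796).

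The shared promoters of TK1 with AFMID and of PPAT with PAICS are printed because the 2 genes of each differed although they start so close together. Both are RefSeq windows on GRCh38.p14 on the minus strand, in the direction of TK1 (chr17:78187155-78187454) and of PPAT (chr4:56435566-56435865). Capitals mark both start sites of the deposited table and the bases between them.
TK1: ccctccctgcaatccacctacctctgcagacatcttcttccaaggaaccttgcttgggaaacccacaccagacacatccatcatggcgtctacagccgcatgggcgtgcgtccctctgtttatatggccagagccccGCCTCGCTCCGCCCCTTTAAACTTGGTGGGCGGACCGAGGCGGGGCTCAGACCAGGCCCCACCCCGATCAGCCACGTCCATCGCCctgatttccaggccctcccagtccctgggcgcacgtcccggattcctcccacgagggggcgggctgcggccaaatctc
PPAT: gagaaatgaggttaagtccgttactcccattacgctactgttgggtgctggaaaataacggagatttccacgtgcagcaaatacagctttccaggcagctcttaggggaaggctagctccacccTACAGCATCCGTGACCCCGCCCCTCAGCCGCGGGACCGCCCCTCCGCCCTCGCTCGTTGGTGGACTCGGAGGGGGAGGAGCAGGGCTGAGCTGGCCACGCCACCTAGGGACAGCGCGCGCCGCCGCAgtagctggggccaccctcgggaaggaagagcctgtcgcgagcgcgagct
The lower-case run cacgtg in the PPAT window, an E-box, begins 182 bases before the PPAT start and thus beyond the start of PAICS.

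Another 3 members overlap a neighbour at their starts, which lie on opposite strands: GART with SON, PFAS with CTC1 and UCK2 with TMCO1. SON, a splicing factor, had log2 ratios of -0.55, -0.58 and -0.42 where GART stood at 0.13, 0.16 and -0.01. CTC1, a telomere protein, had 0.28, 0.18 and 0.26 where PFAS stood at -1.20, -1.31 and -1.36. TMCO1 had -0.40, -0.38 and -0.49, near UCK2. TK2 starts 19 bases from CKLF, which had only 7 to 28 reads in any library. Thus, in the pairs of TK1, DTYMK, PFAS and PAICS, the member was called lower and its neighbour was not. Of all genes tested, 4.92% were called lower in all 3 libraries, so a neighbour without a call is the usual case. PPAT, the neighbour of PAICS, also lay below Bulk, at -0.50, -0.42 and -0.71, short of the fold threshold.

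**Figure D4:**
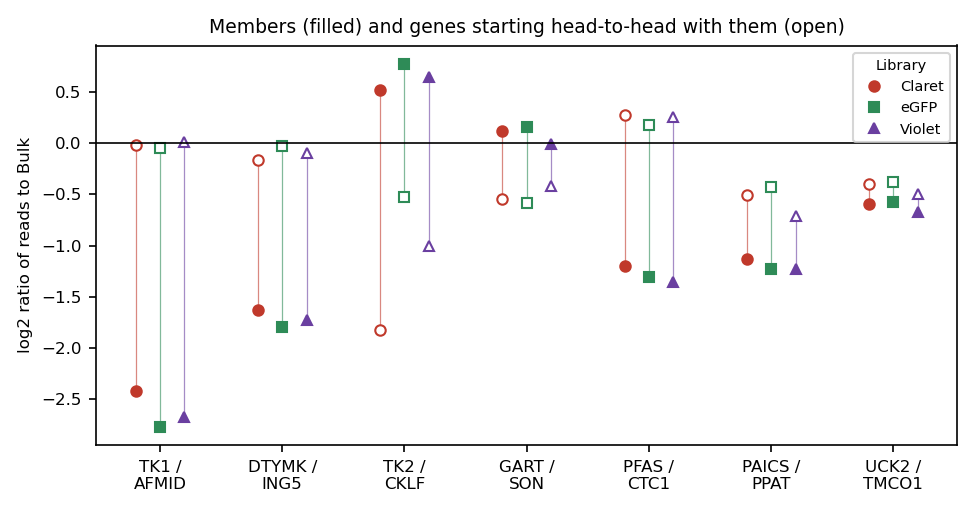
Log2 ratio to Bulk (y axis) of 7 members (filled) and of the gene that starts head-to-head with each (open), in Claret (circles), eGFP (squares) and Violet (triangles), 1 library each. AFMID, ING5 and CTC1 lie near or above 0 where TK1, DTYMK and PFAS lie at or below -1.20; the open points of CKLF rest on 7 to 28 reads.

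Promoter windows of 300 bases were in RefSeq's table for 32 of the 35 members and were searched on both strands for 6 motifs. CCAAT was found in 11 of the 32 (34.4%), a share close to the 35.7% of 27305 promoters. Among the members called lower in all 3 it was in 7 of the 15 with a window (46.7%). The E-box CACGTG was in 6 (18.8%, against 7.43% of all promoters), namely ATIC, DCK, DHODH, MTHFD1, NME1 and PPAT. The E2F letters TTTCGCGC or TTTGGCGC, and the alternatives TTTCCCGC or TTTGCCGC, were in 3 (TYMS, DCK and PRPS2, 9.38%, against 3.33%). The AP-1 letters TGANTCA, of interest because the title of the series names AP-1, were in 2 (PAICS and NME1, 6.25%, against 7.76%). For PAICS the RefSeq window belongs to another start than the one in the deposited table. TGACGTCA (CRE) was in 1, UMPS (3.12%, against 1.98%), and TTTGAA (CHR) in 3, ADSS, RRM1 and UMPS (9.38%, against 15.4%). The CCAAT box was in 4 of the 16 members with a window that were not called in all 3, and the E-box in 3 of the 15 called lower and in 3 of those 16. A match of letters is a description of the sequence and not a site of binding.

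Between the slow-cycling libraries no member was called at a fold of 2 in any of the 3 pairs. Of all genes, 0.713% were called in either direction between Claret and eGFP, 0.788% between Claret and Violet and 0.932% between eGFP and Violet. Smaller differences passed the adjusted p alone. Claret against eGFP had 9 members higher and 1 lower at any fold (6% and 6.25% of all genes), Claret against Violet 9 higher and 0 lower (9.51% and 7.7%), and eGFP against Violet 4 higher and 1 lower (9.26% and 7.67%). RRM2 differed most. It was higher in Claret than in eGFP by a log2 ratio of 0.75 (95% interval 0.51 to 1.01, adjusted p = 3.8e-08 in the exact binomial test), and lower in eGFP than in Violet, at -0.54 (-0.81 to -0.29, adjusted p = 0.00038). RRM1 at 0.39, TK1 at 0.36 and TYMS at 0.41 were also higher in Claret than in eGFP, with adjusted p of 1.5e-06, 7.3e-05 and 0.020 in the same test. TK2 was the gene lower in Claret than in eGFP, at -0.26 (adjusted p = 0.0054). The 17 replication genes had a median log2 ratio of 0.23 for Claret against eGFP and of -0.06 for eGFP against Violet, and MKI67 had 995, 689 and 915 reads in the order Claret, eGFP, Violet. The part of cycling cells in the differences of RRM2 and TK1 was not tested.

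By TMM-scaled CPM, Claret was the highest of the 3 slow-cycling libraries for 24 of the 35 members and for 14 of the 16 called lower. How often Claret was highest among all genes tested was not counted. For those 16, eGFP was the lowest library for 9, Violet for 5 and Claret for 2. Over all 35, the lowest value was in eGFP for 13 members: RRM1, RRM2, RRM2B, TYMS, TK1, DCTD, DTYMK, DCK, PAICS, ADSL, ATIC, UCK1 and NME1. It was in Claret for 5 (DUT, SAMHD1, TK2, CAD and ADSSL1) and in Violet for the other 17. APRT was higher in Claret than in Violet by 0.35 (adjusted p = 6.5e-09), GMPS by 0.31 (5.7e-07) and IMPDH2 by 0.18 (4.2e-07), each in the exact binomial test with Benjamini-Hochberg adjustment. CTPS2 was higher in eGFP than in Violet by 0.36 (adjusted p = 0.00061). The neighbours in these orders are mostly within counting error, and without replicates the spread between cultures is not known.

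A list of 60 other genes of nucleotide metabolism (folate enzymes, kinases, nucleotidases, phosphorylases, deaminases, pool-cleaning hydrolases and transporters) was set beside the members, of which 47 were tested. Their median log2 ratio was -0.10, 0.02 and -0.02 in Claret, eGFP and Violet, with 5 called lower in each library and 3, 3 and 1 called higher. Called lower in all 3 were 4 of them, SHMT1 and DCTPP1 among these. Of all genes tested, 6.67% to 7.6% were called lower in a library and 11.2% to 11.9% higher. In all 3, 4.92% of all genes tested were called lower and 8.36% higher. SHMT1, the cytosolic serine hydroxymethyltransferase, had 878 reads in Bulk against 260 (Claret), 228 (eGFP) and 277 (Violet), with log2 ratios of -1.85, -1.95 and -1.66. DCTPP1, a hydrolase that clears unwanted nucleotides from the dNTP pool, had log2 ratios of -1.11, -1.22 and -1.33. The gene called higher in all 3 was UPP1, uridine phosphorylase, which breaks uridine down to uracil. It had 1299 reads in Bulk against 4004 (Claret), 3386 (eGFP) and 2756 (Violet), with log2 ratios of 1.52, 1.37 and 1.08.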

How the data were processed

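The authors deposited whole-number read counts per gene, with no normalization, and FPKM values, per the file headers and the values. The submitters' processing notes name HISAT2 2.0.5 and featureCounts 1.5.0-p3, while genome build, annotation, strandedness and the treatment of multi-mapping reads are not given in the sources used here. Start and end of all 58735 genes equal GENCODE 29, an annotation of GRCh38. FPKM times gene length over the count was constant within each library (largest relative departure 6.03e-09), and served only for levels per gene length and in 1 alternative.

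From the counts, log2 ratios were computed on CPM scaled by TMM over all genes (edgeR 4.0.16, R 4.3.3) with a prior count of 2, for the 14585 genes with a mean of at least 1 CPM. With 1 library a group, no residual degrees of freedom are left for edgeR's quasi-likelihood test, so reads of 2 libraries were compared by a two-sided exact conditional binomial test (scipy 1.17.1), adjusted by Benjamini-Hochberg over all 14585 genes. Intervals are 95% and exact (Clopper-Pearson for the ratio of 2 libraries, conditional odds ratio for the balance of 2 genes). They cover counting error only, as each group is 1 library. The reads carry no molecular identifiers, so copies of 1 molecule cannot be told apart from separate molecules. Totals of 15508179 to 16976909 reads mean that 0 reads allow up to 3 reads, 0.177 to 0.193 CPM. The test was also run on simulated data. Alternatives were DESeq2 1.42.0 size factors, total counts, other filters, prior counts and folds, FPKM, a GC correction, an assumed variation and the treatment field.

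Every member is named; those called in all 3 slow-cycling libraries, those differing between them and those of the 7 pairs have their reads given, and of the other nucleotide genes those called in all 3, of which 2 are not reported here. Members and lists were chosen with earlier results of these data known. Head-to-head neighbours were added after the values were seen. Promoter sequences are RefSeq's on GRCh38.p14, matched by symbol, with the current symbols of ADSS and ADSSL1.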

Additional observations from a re-analysis of the deposited data

Results flagged for a closer look

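RRM2 differed between slow-cycling libraries that share the comparison with Bulk. It stood 0.75 higher on the log2 scale in Claret than in eGFP and at -0.54 in eGFP against Violet, both past the adjusted p of the exact binomial test and both under a fold of 2. The reads behind this were 385, 213 and 310 in Claret, eGFP and Violet, with 1 library each, so the difference has no replicate check. RRM2 shares 20.2% of its exonic bases with AC007240.1 on the same strand, which had 34 reads in Bulk against 7 (Claret), 4 (eGFP) and 10 (Violet).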

How the results depend on the processing

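Each group holds 1 library, so no library could be left out. No paired analysis was possible because each group holds 1 library. No scaling moved the median of all genes by over 0.1 (log2), and DESeq2 size factors, no filter, a prior count of 0.5 and TMM factors from the genes tested moved no count of calls by over 1.5 times. The treatment field changed most, because the library titled Bulk then counts as Claret. Against its un-gated library, 19 members were called higher and 1 lower in Claret, 0 either way in eGFP and Violet, with 0 lower and 0 higher in all 3. Medians were 1.03, 0.13 and 0.054 in Claret, eGFP and Violet, and 0.97 for Claret against Violet and 0.82 against eGFP, with 18 members called in each of these pairs. Of the other nucleotide genes, 5 were higher in Claret with 1 lower, and 0 were called in eGFP and Violet. Median log2 ratios turned their sign for 30 of the 35 members, 15 of them called in all 3 libraries: ADSL (0.25), ADSSL1 (-0.15), CTPS1 (0.18), DCK (0.10), DTYMK (0.10), MTHFD1 (0.16), NME1 (0.16), PAICS (0.099), PFAS (0.16), PRPS1 (0.11), RRM1 (0.26), RRM2 (0.21), TK1 (0.26), TYMS (0.20) and UMPS (0.25). So did the median of the 3 log2 balances of ADSS over ADSSL1 (0.26), CTPS1 over CTPS2 (0.0055), RRM2 over RRM2B (0.25) and TK1 over TK2 (0.39). The median for IMPDH2 over IMPDH1 was 0.023. With a filter at 10 CPM, which drops ADSSL1 and ADSL, 0 members were higher in each library and in all 3. On log2(FPKM + 1), which shrinks low genes, a call rested on the fold alone, without a test. There, 0 members were higher in each library and in all 3. The Violet median was -0.89, and 0 other nucleotide genes were higher in Violet. On that scale ADSL, DCK, SAMHD1 and UMPS were no longer called lower in all 3. At a fold of 1.5, 2 members were higher in eGFP and 2 in Violet, 1 was called between Claret and eGFP, and 8, 7 and 6 other nucleotide genes were higher and 10, 11 and 9 lower in Claret, eGFP and Violet. With the assumed variation of 0.2, members lower were 10 in Claret, 12 in Violet and 10 in all 3, and of the other nucleotide genes 1 was higher in Claret, 3 were lower there and 0 were higher in Violet. By total counts, 2 other nucleotide genes were higher in Violet. Without the 8 members that share exons, 27 are left, with 10 lower in Claret, 10 in eGFP, 12 in Violet and 9 in all 3, and medians of -0.59, -0.58 and -0.75. Causes other than those named were not tested. Over all settings, 15 values of single members lost the call with the sign kept and 1 gained it (CAD under GC correction). Outside the treatment field only IMPDH2, which was not called, turned its sign, on log2(FPKM + 1) (-0.016) and under GC correction (-0.10).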

Other observations

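Several mitochondrial enzymes of nucleotide and folate metabolism had more reads than in Bulk where cytosolic counterparts had fewer. This grouping was made after the values were seen, and the difference between the compartments was not tested. Of the folate enzymes, the cytosolic SHMT1 and MTHFD1 were called lower than Bulk in all 3 slow-cycling libraries. The mitochondrial SHMT2 had 5102 reads in Bulk against 7271 (Claret), 6377 (eGFP) and 6690 (Violet), with log2 ratios of 0.40, 0.31 and 0.39. MTHFD2, which acts after it, had 1229 reads in Bulk against 2929 (Claret), 2556 (eGFP) and 2390 (Violet), and its log2 ratios of 1.15, 1.04 and 0.95 gave a call in Claret and eGFP. MTHFD1L had log2 ratios of 0.39, 0.32 and 0.27, and MTHFD2L 0.12, 0.14 and 0.21. Of the deoxynucleoside enzymes of mitochondria, DGUOK, the deoxyguanosine kinase, had log2 ratios of 0.14, 0.19 and 0.04. NT5M, a mitochondrial deoxynucleotidase, had 40 reads in Bulk against 99 (Claret), 122 (eGFP) and 76 (Violet), with log2 ratios of 1.16, 1.55 and 0.89, and was called in Claret and eGFP. Not every mitochondrial enzyme was above Bulk: AK4, an adenylate kinase of the matrix, had log2 ratios of -1.03, -0.92 and -0.88, and DHODH -0.58, -0.47 and -0.62.

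The most abundant of the other nucleotide genes by reads was NT5E (CD73), the surface enzyme that makes adenosine from AMP, with 21638 reads in Bulk against 34478 (Claret), 32642 (eGFP) and 30883 (Violet). Its log2 ratios were 0.57, 0.58 and 0.51, below the fold of 2. Of the AMP deaminases, AMPD2, with 2645 reads in Bulk, had log2 ratios of -0.06, 0.12 and -0.02, and AMPD3, with 389, had 0.93, 0.91 and 0.91. The GMP reductases GMPR and GMPR2 stood at 0.51, 0.36 and 0.25 and at 0.90, 0.93 and 0.66, and the adenosine deaminase ADA at 0.76, 0.89 and 0.47. None of these 5 was called. PNP, which splits purine nucleosides, stood at -0.78, -0.84 and -0.90.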
